A study of Rattus norvegicus with 9 samples.

Results

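Kidney expression of the aquaporins and of the vasopressin receptors was read from 10 genes: Aqp1, Aqp2, Aqp3, Aqp4, Aqp5, Aqp6, Aqp7, Aqp11, Avpr2 and Avpr1a. Members were chosen by symbol, by taking each array probe whose RefSeq transcript matched one of these names. They are 10 of the 13903 genes with a matched symbol, and they have 11 of the 24684 probes on the array because Aqp4 has 2. All 11 probes passed the filter on dim signals and were among the 16592 probes tested. The groups were 3 rat strains with 3 arrays each: Dahl Salt Sensitive (Dahl S), the spontaneously hypertensive rat (SHR), and Dahl Salt Resistant (Dahl R). Dahl S becomes hypertensive when salt is added to its food, SHR does so without added salt, and Dahl R was selected from the same stock as Dahl S for resistance to salt. All 9 animals were males of 53 days that had been weaned at 30 days and then given food with 0.3% salt, so no group was salt loaded. The labels name kidney as the tissue, with no region, and give no blood pressure, urine volume or other agent. They put all births on 1 day but do not say whether rats shared a litter or an extraction, and the p-values therefore cover the spread among these arrays, which may be partly technical.

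Aquaporins are membrane channels for water, and some also carry glycerol or other small solutes. In the kidney, Aqp1 carries water out of the proximal tubule and the thin descending limb, whereas water leaves the collecting duct through Aqp2 in the apical membrane of principal cells and through Aqp3 and Aqp4 in their basolateral membrane. Vasopressin binds the V2 receptor, encoded by Avpr2, which acts through cyclic AMP and protein kinase A to move Aqp2 to the membrane and to raise its transcription. The V1a receptor, encoded by Avpr1a, acts through phospholipase C and calcium, and is found on vessels and on intercalated cells.

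A level below is the log2 signal of a probe relative to the 75th percentile of its array, and a difference is the mean log2 level of the first strain minus that of the second. No level of one probe is set against that of another, because probes bind unequally. The share of probes well above background was 60.1% to 70.3% on 8 arrays, whose log2 signals correlated at 0.951 to 0.997 across probes. SHR replicate 3 stood apart: 43.1% of its probes were well above background, 7.93% of its spots were marked as outliers against 1.49% to 2.62% elsewhere, and its correlations were 0.920 to 0.956. The spots of Aqp1, Aqp3 and Aqp4 (the brighter probe) on that array were marked and left out, so those SHR values rest on 2 arrays, and member results are also given without SHR replicate 3 where its removal moves them. Arrays were scanned in 3 passes. The first held the 3 Dahl S arrays and Dahl R replicate 1, the second held Dahl R replicates 2 and 3 and SHR replicates 1 and 2, and the third held SHR replicate 3, so no pass held both Dahl S and SHR. Kidney segment markers were present: 8 of 8 measured principal cell markers, 11 of 11 intercalated cell markers and 13 of 13 proximal tubule markers were well above background on the 8 arrays other than SHR replicate 3.

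Aqp4, by its brighter probe, and Aqp2 were the members that passed in both comparisons with SHR, each with SHR above the Dahl strains. The Aqp2 calls lay close to the threshold, and neither held when scan pass was added to the fit. The Aqp4 result rests on 2 usable SHR arrays, and its second probe, usable on all 9 arrays, did not pass. Avpr1a was higher in SHR than in Dahl R. Between Dahl S and Dahl R, 0 of 10 members passed an adjusted p of 0.05 in limma, where 1.4% of all tested probes did. The median difference of the 10 was 0.00, against 0.02 over all tested probes. Between Dahl S and SHR, 2 of 10 passed, Aqp2 and Aqp4, both lower in Dahl S, where 15.7% of all probes passed; the median difference was -0.21, against -0.09 over all probes. Between SHR and Dahl R, 3 of 10 passed, Aqp2, Aqp4 and Avpr1a, all higher in SHR, where 13% of all probes passed, and the median difference was 0.42, against 0.11 over all probes. Against these shares the counts say little about the members as a group, and what follows is given gene by gene. The comparisons share their arrays: each strain enters 2 of the 3.

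**Figure D1:**
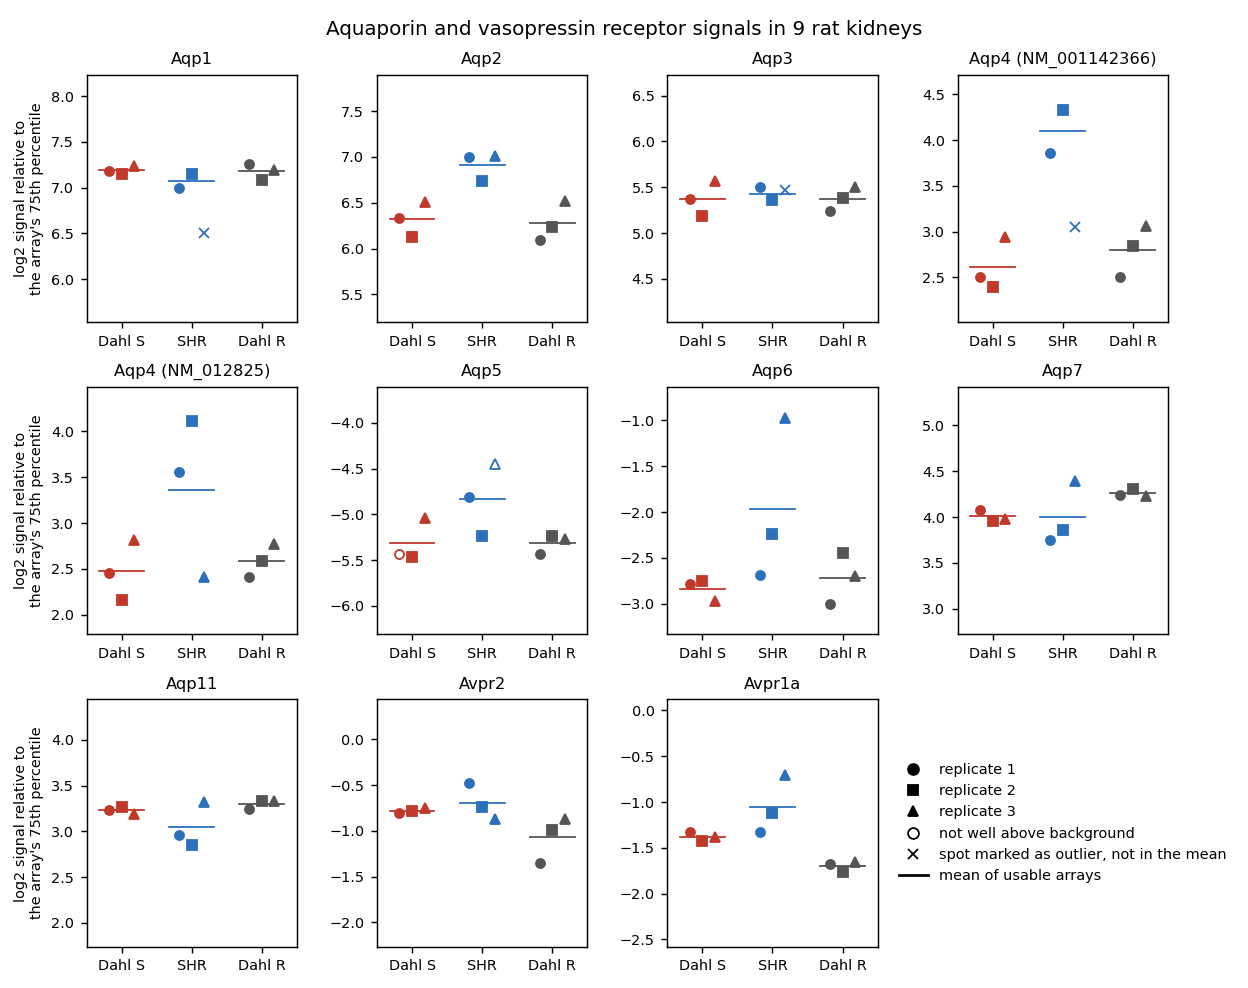
Log2 level (signal over the 75th percentile of the array) for each of the 11 member probes, with Dahl S, SHR and Dahl R from left to right in each panel and 1 symbol per array; every panel spans the same height on the log2 scale. The usable SHR arrays lie above all Dahl arrays for Aqp2 and for the brighter Aqp4 probe (NM_001142366), and above all Dahl R arrays for Avpr1a.

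Aqp2 is the vasopressin-regulated water channel of the apical membrane, and its level was 6.33, 6.13 and 6.51 in Dahl S replicates 1 to 3, 7.00, 6.74 and 7.01 in SHR, and 6.09, 6.24 and 6.52 in Dahl R. Every SHR array was above every Dahl array, and the Dahl strains overlapped. The means were 6.32 ± 0.19 in Dahl S, 6.92 ± 0.15 in SHR and 6.28 ± 0.22 in Dahl R (SD, n = 3 each). Dahl S was lower than SHR by a difference of -0.59 ± 0.15 (SE), with SHR 1.51-fold higher and a limma adjusted p of 0.0383. SHR was higher than Dahl R by 0.64 ± 0.15, which is 1.55-fold, with a limma adjusted p of 0.0356. Between Dahl S and Dahl R the difference was 0.04, with a 95% interval of -0.32 to 0.40 and an adjusted p of 0.986. The channel therefore ranked SHR first, with the Dahl strains not separated.

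The Aqp2 calls lay close to the threshold. Without SHR replicate 3 the adjusted p was 0.0528 for Dahl S against SHR and 0.0467 for SHR against Dahl R, with differences of -0.55 and 0.59. The first call was lost without any 1 of the 3 Dahl S arrays, Dahl R replicate 2, SHR replicate 1 or SHR replicate 3 (adjusted p 0.0527 to 0.129), and the second without Dahl S replicate 1, Dahl R replicate 1 or 2, or SHR replicate 1 (0.0546 to 0.124). Within the second scan pass the mean of 2 SHR arrays exceeded that of 2 Dahl R arrays by 0.49. With the scan pass as a block the difference was -0.25 for Dahl S against SHR (limma adjusted p 0.696). For SHR against Dahl R it was again the within-pass difference of 0.49 (adjusted p 0.118).

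Aqp4, the basolateral channel of principal cells, had 2 probes. The brighter one, for RefSeq transcript NM_001142366, had levels of 2.51, 2.40 and 2.94 in Dahl S, 3.86 and 4.33 in SHR replicates 1 and 2, and 2.50, 2.84 and 3.06 in Dahl R. The other, for NM_012825, had 2.45, 2.16 and 2.82 in Dahl S, 3.56, 4.11 and 2.41 in SHR, and 2.41, 2.59 and 2.77 in Dahl R. On both probes SHR replicates 1 and 2 stood clear of every Dahl array. SHR replicate 3 did not: the second probe lay inside the Dahl range on that array, and the marked spot of the first would have had a level of 3.05, just under the highest Dahl R array.

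For the brighter probe the means were 2.62 ± 0.29 in Dahl S (SD, n = 3), 4.09 ± 0.33 in SHR (n = 2) and 2.80 ± 0.28 in Dahl R (n = 3). Dahl S was lower than SHR by a difference of -1.48 ± 0.25, with SHR 2.79-fold higher and a limma adjusted p of 0.0103. SHR was 2.45-fold higher than Dahl R, a difference of 1.29 ± 0.25 with a limma adjusted p of 0.0189. Dahl S against Dahl R gave -0.18, with a 95% interval of -0.71 to 0.34. The order was again SHR above the Dahl strains, which overlapped.

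With all 3 SHR arrays, the second Aqp4 probe gave -0.88 ± 0.40 for Dahl S against SHR (adjusted p 0.177) and 0.77 ± 0.40 for SHR against Dahl R (adjusted p 0.257), and neither passed. Without SHR replicate 3 its differences were -1.36 (adjusted p 0.00718) and 1.24 (adjusted p 0.0113), close to the -1.48 and 1.29 of the brighter probe. When the marked spot was counted, the brighter probe gave -1.13 (adjusted p 0.056) and 0.95 (adjusted p 0.106). The Aqp4 difference therefore rests on SHR replicates 1 and 2. Leaving out SHR replicate 2 ended both calls (adjusted p 0.0501 and 0.0788), in a fit with 1 usable SHR array that is assumed to vary like the Dahl arrays. The SHR against Dahl R call was also lost on leaving out Dahl R replicate 1 or 2 (0.0591 and 0.0666). Within the second scan pass SHR exceeded Dahl R by 1.14 and 1.15 on the 2 probes. With scan pass as a block, Dahl S against SHR gave -1.03 for the brighter probe (limma adjusted p 0.194). SHR against Dahl R gave the same within-pass difference of 1.14 (adjusted p 0.0277).

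Aqp3, the other basolateral channel, which also carries glycerol, did not separate the strains. Its level was 5.37, 5.19 and 5.57 in Dahl S, 5.50 and 5.36 in SHR replicates 1 and 2, and 5.24, 5.38 and 5.50 in Dahl R. The arrays of all strains overlapped. The difference was -0.05 for Dahl S against SHR (95% interval -0.41 to 0.30) and 0.06 for SHR against Dahl R (-0.30 to 0.41), so differences of up to 0.41 in size lie inside the intervals.

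The promoter windows of the 3 genes that passed the test are shown because the V2 receptor acts on Aqp2 transcription through the cyclic AMP response element. Each is the 250 bases before an annotated start in RefSeq on build GRCr8, written 5′ to 3′ on the strand of the gene. Capitals mark the half-site TGACG of that element, searched on both strands, so that CGTCA is a match on the opposite strand. Aqp2 is read from chr7:132590036-132590285 on the plus strand, Avpr1a from chr7:59999493-59999742 on the plus strand, and Aqp4, which has 2 annotated starts, from chr18:6797927-6798176 and chr18:6798843-6799092 on the minus strand.
Aqp2: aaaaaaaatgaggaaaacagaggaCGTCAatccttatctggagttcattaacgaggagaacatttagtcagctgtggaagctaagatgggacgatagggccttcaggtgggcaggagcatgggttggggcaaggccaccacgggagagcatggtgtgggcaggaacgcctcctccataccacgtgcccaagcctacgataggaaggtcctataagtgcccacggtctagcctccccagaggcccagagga
Avpr1a: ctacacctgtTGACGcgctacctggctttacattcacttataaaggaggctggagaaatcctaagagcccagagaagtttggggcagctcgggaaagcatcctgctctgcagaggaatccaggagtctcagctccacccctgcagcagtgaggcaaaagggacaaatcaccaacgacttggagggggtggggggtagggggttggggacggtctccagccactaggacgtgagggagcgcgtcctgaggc
Aqp4, first window: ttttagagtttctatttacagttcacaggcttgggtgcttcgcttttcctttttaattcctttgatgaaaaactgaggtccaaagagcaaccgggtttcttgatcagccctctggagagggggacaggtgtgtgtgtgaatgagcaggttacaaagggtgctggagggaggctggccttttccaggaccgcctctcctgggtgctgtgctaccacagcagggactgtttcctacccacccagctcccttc
Aqp4, second window: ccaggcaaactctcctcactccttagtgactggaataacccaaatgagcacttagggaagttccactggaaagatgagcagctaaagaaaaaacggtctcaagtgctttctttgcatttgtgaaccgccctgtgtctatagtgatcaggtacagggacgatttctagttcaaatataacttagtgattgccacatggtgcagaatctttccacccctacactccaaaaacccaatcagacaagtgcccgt
The half-site was found in the Aqp2 window, starting 226 bases before the start on the opposite strand, and in the Avpr1a window, starting 240 bases before it. It was in 18.2% of the 33469 promoter windows of the table, a share that includes windows with the full element TGACGTCA, which was in 1.59%. The full element was in 0 of the 10 windows found for members. Aqp7 had no entry. These letters are those of the reference genome, not of the 3 strains, and a match is a description of the window.

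Other motifs were searched in the same windows. The core GATA was in the Aqp2 and Avpr2 windows and in 55.9% of all windows, and the steroid receptor half-site AGAACA was in the same pair and in 17.5% of all windows. The core GGAAA of NFAT factors, whose member Nfat5 responds to tonicity, was in 7 of the 10 member windows and in 56.9% of all. The AP-1 motif TGANTCA was in 0 of the 10 and in 6.34% of all. The E-box CANNTG was in 8 of the 10 and in 65.5% of all, and TATAAA was in 4 of the 10 and in 12.9% of all. In the GRCr8 annotation Aqp2, Aqp5 and Aqp6 are consecutive coding genes on chromosome 7, which also holds Avpr1a, and Aqp7 and Aqp3 are neighbours on chromosome 5.

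Of the neighbours of Aqp2, Aqp5 is a channel best known from salivary and lung epithelium, and Aqp6 is an anion-permeable channel in vesicles of intercalated cells. The Aqp5 signal was faint. Its level was -5.43, -5.47 and -5.04 in Dahl S, -4.81, -5.24 and -4.45 in SHR, and -5.43, -5.24 and -5.27 in Dahl R. It was well above background on 2 of 3 Dahl S arrays, 2 of 3 SHR arrays and 3 of 3 Dahl R arrays, and the array with the highest value, SHR replicate 3, lacked that mark. The difference was -0.48 for Dahl S against SHR (limma adjusted p 0.162) and 0.48 for SHR against Dahl R (0.182), and without SHR replicate 3 they were -0.29 and 0.29.

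Aqp6 had levels of -2.79, -2.75 and -2.97 in Dahl S, -2.69, -2.24 and -0.97 in SHR, and -3.00, -2.45 and -2.70 in Dahl R. Here SHR replicate 3 was far above the other 8 arrays. The difference was -0.87 ± 0.40 for Dahl S against SHR (limma adjusted p 0.18) and 0.75 ± 0.40 for SHR against Dahl R (0.265), and without that array -0.37 (0.2) and 0.25 (0.408). Neither Aqp5 nor Aqp6 passed the test with or without SHR replicate 3.

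**Figure D2:**
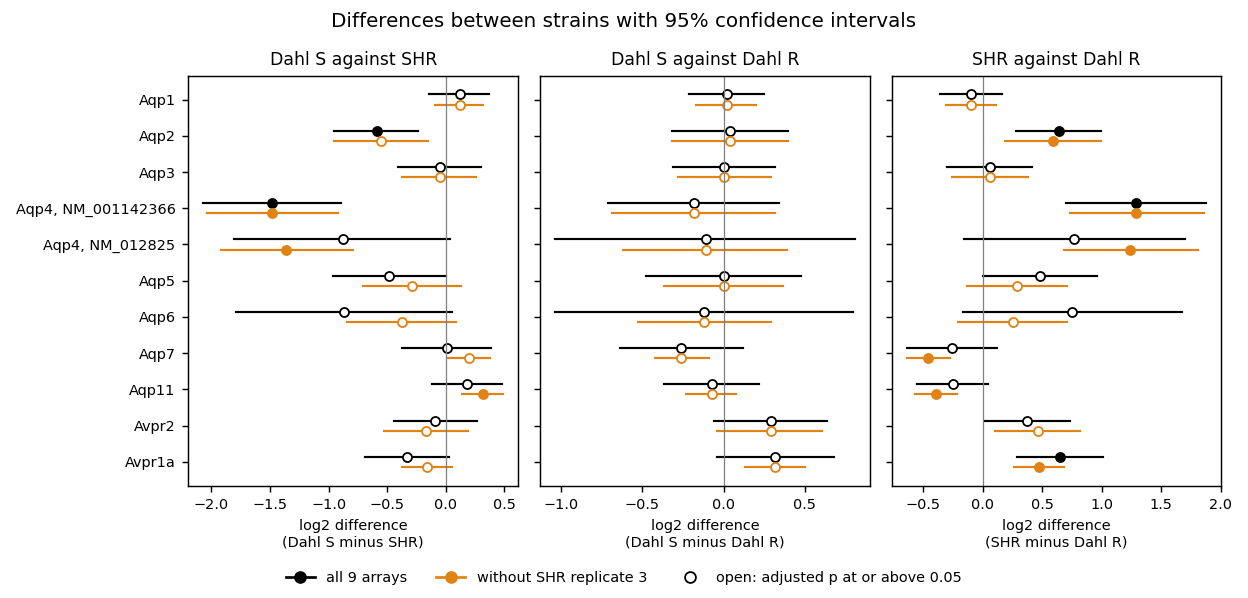
Log2 difference and 95% confidence interval of each member probe in the 3 comparisons, the first-named strain minus the second, with all 9 arrays (black) and without SHR replicate 3 (orange); filled points have an adjusted p below 0.05. With all 9 arrays, Aqp2 and the brighter Aqp4 probe are filled in both comparisons with SHR and Avpr1a in SHR against Dahl R. Without SHR replicate 3, Aqp7, Aqp11 and the second Aqp4 probe are filled too in SHR against Dahl R. In Dahl S against SHR, Aqp11 and the second Aqp4 probe are then filled and Aqp2 is open.

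Of the proximal tubule channels, none passed with all 9 arrays, and Aqp7 and Aqp11 passed in SHR against Dahl R without SHR replicate 3. Aqp1, the constitutive water channel of the proximal tubule, had levels of 7.18, 7.15 and 7.24 in Dahl S, 7.00 and 7.15 in SHR replicates 1 and 2, and 7.26, 7.08 and 7.19 in Dahl R. These arrays lay within a narrow band, and the marked spot of SHR replicate 3 would have been lower, at 6.51. Its difference was 0.02 for Dahl S against Dahl R (95% interval -0.21 to 0.25), 0.12 for Dahl S against SHR (-0.14 to 0.37) and -0.10 for SHR against Dahl R (-0.36 to 0.16). With the marked spot counted, the comparisons with SHR gave 0.31 (adjusted p 0.255) and -0.29 (0.316).

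Aqp7, a glycerol channel of the straight proximal tubule, had levels of 4.08, 3.96 and 3.98 in Dahl S, 3.75, 3.86 and 4.39 in SHR, and 4.24, 4.31 and 4.23 in Dahl R. All Dahl S arrays were below all Dahl R arrays, and SHR replicate 3 was above every other array while SHR replicates 1 and 2 were below all of them. Dahl S against Dahl R gave -0.26 ± 0.16 (limma adjusted p 0.706). SHR against Dahl R gave -0.26 ± 0.16 with all arrays (adjusted p 0.345) and -0.46 without SHR replicate 3 (adjusted p 0.00675), where SHR was lower than Dahl R. Within the second scan pass this difference was -0.47. Dahl S against SHR gave 0.01 (adjusted p 0.982) and, without SHR replicate 3, 0.20 (adjusted p 0.0947).

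Aqp11, a channel of the endoplasmic reticulum of the proximal tubule, followed the same outline. Its level was 3.23, 3.27 and 3.19 in Dahl S, 2.96, 2.85 and 3.32 in SHR, and 3.24, 3.33 and 3.33 in Dahl R. SHR replicates 1 and 2 were the lowest arrays, and SHR replicate 3 lay among the Dahl R arrays. SHR against Dahl R gave -0.25 ± 0.13 (adjusted p 0.242) with all arrays and -0.39 without SHR replicate 3 (adjusted p 0.0105), and Dahl S against SHR gave 0.18 (adjusted p 0.368) and 0.32 (adjusted p 0.0202). Without SHR replicate 3, 0 of 10 members passed between Dahl S and Dahl R, where 4.59% of all probes did. Between Dahl S and SHR 2 passed (Aqp4 and Aqp11), beside 26.2% of all probes, and between SHR and Dahl R 5 passed (Aqp2, Aqp4, Aqp7, Aqp11 and Avpr1a), beside 22.7%.

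Of the receptors, Avpr2 couples vasopressin to water reabsorption. Its level was -0.81, -0.78 and -0.75 in Dahl S, -0.48, -0.74 and -0.87 in SHR, and -1.35, -0.99 and -0.87 in Dahl R. Dahl S lay above Dahl R on all arrays, and SHR overlapped Dahl S. The difference was 0.29 ± 0.15 for Dahl S against Dahl R (limma adjusted p 0.612), -0.09 ± 0.15 for Dahl S against SHR (0.727) and 0.37 ± 0.15 for SHR against Dahl R (0.159), and none passed. Without SHR replicate 3 the last was 0.46 (adjusted p 0.0733), and Dahl S against SHR was -0.17 (0.443). Dahl R ranked lowest, without a difference that passed the test.

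Avpr1a, the receptor for the pressor action of vasopressin, had levels of -1.33, -1.43 and -1.38 in Dahl S, -1.33, -1.12 and -0.70 in SHR, and -1.68, -1.76 and -1.65 in Dahl R. Dahl R was the lowest strain, with none of its arrays reaching a Dahl S or SHR array. The means were -1.38 ± 0.05 in Dahl S, -1.05 ± 0.32 in SHR and -1.70 ± 0.06 in Dahl R (SD, n = 3 each). SHR was 1.57-fold higher than Dahl R, a difference of 0.65 ± 0.15 with a limma adjusted p of 0.0338. Without SHR replicate 3, its highest array, the difference was 0.47 (adjusted p 0.0105), and within the second scan pass it was 0.48. Dahl S exceeded Dahl R by 0.32 ± 0.15 (adjusted p 0.567; 0.0796 without SHR replicate 3), and Dahl S against SHR gave -0.33 ± 0.15 (0.19), or -0.16 (0.237) without SHR replicate 3. The SHR call was lost on leaving out SHR replicate 2 or any 1 of the 6 Dahl arrays (adjusted p 0.051 to 0.122, differences 0.61 to 0.68).

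Counting all members, the arrays of the first and second strain did not overlap for 3 of 10 in Dahl S against Dahl R (Aqp7, Avpr2 and Avpr1a), against 31.1% of all probes. They did not overlap for 4 of 10 in Dahl S against SHR, against 37.9%, and for 5 of 10 in SHR against Dahl R, against 38.7%. These shares are near the background.

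The genes whose array profiles were most like those of the 3 members that passed were ranked by root mean square difference of centred log2 levels. For Aqp4, over the 8 arrays with a usable spot, they were Spock2, Cyp2j10 and Ghrhr, each at 0.19 on the log2 scale where Aqp4 itself ranged over 1.93. For Aqp2, over 9 arrays, they were Cdc6 at 0.09 and Pfkp and Atp6v1c2 at 0.10, with a range of 0.93 for Aqp2. For Avpr1a they were Plcg2 at 0.06 and Lgals3bp and Sort1 at 0.07, with a range of 1.06. The arrays share strain and scan pass, so this is a description of likeness in these arrays.

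Markers of the segments that carry the members differed between strains as well. In bulk kidney, fewer cells of a type and less RNA per cell cannot be told apart. The marker counts stand beside 1.4% of all probes in Dahl S against Dahl R, 15.7% in Dahl S against SHR and 13% in SHR against Dahl R. Of 8 tested principal cell markers, 4 were lower in Dahl S than in SHR and 4 were higher in SHR than in Dahl R. They were the same 4 genes in each: Scnn1b, Elf5, Krt19 and Kcnj1, the last of which is also on the thick ascending limb list. Krt18 went the other way, from 1 usable SHR array whose spread was taken from the Dahl arrays. The mean level of the 4 principal cell markers usable on all arrays was 1.66 to 1.74 in Dahl S. It was 2.35 to 2.74 in SHR and 1.59 to 1.71 in Dahl R, so SHR was highest and the Dahl strains overlapped. Across all 8 tested markers the median difference was smaller, 0.44 for SHR over Dahl R and -0.28 for Dahl S over SHR. Scnn1b, a subunit of the epithelial sodium channel, differed by 1.49 ± 0.20 between SHR and Dahl R (limma adjusted p 0.00303). These marker genes are named after their values were seen. With SHR replicate 3 left out the same counts were 4 and 4 of 7, Krt18 no longer being tested, beside 26.2% and 22.7% of all probes.

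Intercalated cell markers were higher in SHR than in Dahl R for 10 of 11 genes, and 5 of 11 were lower in Dahl S than in SHR. Between the Dahl strains 1 of 11 passed, Slc4a1, higher in Dahl S. Slc4a1 is also on the red cell list, where it was the 1 of 7 tested that passed between the Dahl strains. With SHR replicate 3 left out 4 of 11 intercalated cell markers passed, all higher in Dahl S, beside 4.59% of all probes. The mean of the 8 usable on all arrays was 0.76 to 0.83 in Dahl S and 1.13 to 1.29 in SHR. It was 0.28 to 0.55 in Dahl R, so the order was that of the Avpr1a means. Vessels also carry the V1a receptor. The 4 usable smooth muscle and mesangium markers averaged -0.84 to -0.74 in Dahl S and -0.93 to -0.72 in Dahl R. In SHR they averaged -1.32 to -0.76. The 7 usable endothelium markers averaged -1.27 to -1.07 in Dahl S, -1.10 to -0.56 in SHR and -1.27 to -0.97 in Dahl R. On both lists the strains overlapped. Of 10 markers of the inner medulla and papilla, 4 were lower in Dahl S than in SHR, 2 were higher in SHR than in Dahl R, and 1 was lower in Dahl S than in Dahl R. Those genes were Il18, Upk1b, Krt20 and Akr1b1 in the first case, Il18 and Akr1b1 in the second and Upk1b in the third. The mean of the 5 with a usable spot on all arrays was 0.32 to 0.56 in Dahl S, 0.89 to 1.31 in SHR and 0.97 to 1.13 in Dahl R. The median difference over all 10 was 0.08 for Dahl S over Dahl R, -0.45 for Dahl S over SHR and 0.16 for SHR over Dahl R, so the low Dahl S mean against Dahl R was not a shift of the whole list. Of 13 markers of the proximal tubule, 5 passed with Dahl S above SHR (Cubn, Gatm, Slc13a1, Slc5a1 and Slc7a13) and 5 with SHR below Dahl R (Gatm, Slc13a1, Slc13a3, Slc22a6 and Slc5a1). The mean of 6 of them was 5.85 to 6.12 in Dahl S, 5.72 to 6.01 in SHR and 6.06 to 6.18 in Dahl R. Distal convoluted tubule markers, 7 of which were tested, averaged 1.17 to 1.42 in Dahl S, 1.75 to 1.89 in SHR and 1.29 to 1.45 in Dahl R. Trpv5 and Cnnm2 were lower in Dahl S than in SHR, and Trpv5 was higher in SHR than in Dahl R (a difference of 2.22). The median difference of the 7 was 0.17 for SHR over Dahl R and -0.3 for Dahl S over SHR. The mean of 5 red cell markers was 4.82 to 5.13 in Dahl S, 2.08 to 3.38 in SHR and 4.16 to 4.68 in Dahl R, although the 1 of 7 tested that passed between SHR and Dahl R was Hba-a3 (-9.26), and their median difference there was 0.09. The part of these markers in the Aqp2, Aqp4, Avpr1a, Aqp7 and Aqp11 differences was not tested.

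**Figure D3:**
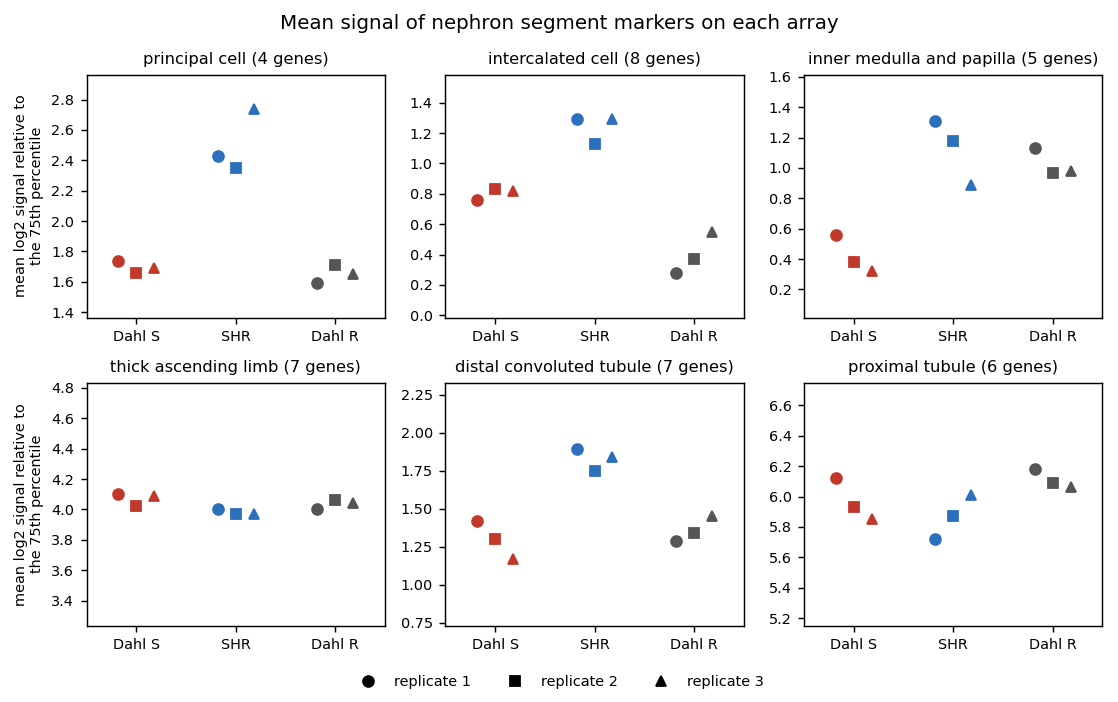
Mean log2 level (signal over the 75th percentile of the array) of the markers of 6 nephron segments or cell types, 1 symbol per array, with Dahl S, SHR and Dahl R from left to right; the number of genes averaged is in each panel title. SHR arrays lie above both Dahl strains for principal cell, intercalated cell and distal convoluted tubule markers. The median for SHR over Dahl R across all tested markers of these lists was 0.44, 0.81 and 0.17 in that order. Dahl S arrays lie below the other strains for the mean of 5 of the 10 inner medulla and papilla markers, where the median over all 10 was 0.08 for Dahl S over Dahl R.

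The chain from the V2 receptor to Aqp2 was read from 22 tested genes of 25 listed. In Dahl S against Dahl R 0 of 22 passed. In Dahl S against SHR, Pde4b and Creb1 were higher and Akap13 was lower in Dahl S. In SHR against Dahl R, Arrb2 and Akap13 were higher and Pde4b was lower in SHR. Of all probes, 1.4%, 15.7% and 13% passed in these 3 comparisons in the same order, so the counts of this list are near those shares. The list's median difference was 0.03 for Dahl S over Dahl R, 0.01 for Dahl S over SHR and 0.07 for SHR over Dahl R. Pde4b, a phosphodiesterase that breaks down cyclic AMP, was 2.33-fold higher in Dahl S than in SHR (1.22 ± 0.21, limma adjusted p 0.00774), and SHR was below Dahl R by a difference of -1.10 ± 0.21 (adjusted p 0.0133). These passed under 18 and 17 of 21 alternative settings.

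The other calls in that list were smaller. Creb1, a transcription factor that binds the cyclic AMP response element, differed by 0.51 in Dahl S against SHR (limma adjusted p 0.0425), with 2 of 3 SHR arrays detected above background. Akap13, an anchor for protein kinase A, gave -0.44 in Dahl S against SHR (0.0474) and 0.46 in SHR against Dahl R (0.0467), and Arrb2, an arrestin that binds activated receptors, gave 0.39 in SHR against Dahl R (0.0307). Each of these 4 results passed under 5 to 9 of 21 alternatives. Gnas, which encodes the G protein subunit that activates adenylyl cyclase, Adcy3, an adenylyl cyclase, and Prkaca and Prkacb, catalytic subunits of protein kinase A, did not pass in any comparison. Leaving out SHR replicate 3, 5 of the 22 genes of the list were higher and 1 was lower in Dahl S than in SHR. That is near the 26.2% of all probes that passed in this fit.

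Of the machinery that moves Aqp2 vesicles, 22 of 27 listed genes were tested, and 0 of 22 passed between the Dahl strains. The 1 gene past the threshold in each comparison with SHR was Vamp2, a vesicle SNARE. It was lower in Dahl S than in SHR by a difference of -0.37 ± 0.09 (limma adjusted p 0.0379) and higher in SHR than in Dahl R by 0.34 ± 0.08 (adjusted p 0.0384), each passing under 5 of 21 alternatives. The list's median difference was 0.08 for Dahl S over Dahl R, 0.15 for Dahl S over SHR and -0.01 for SHR over Dahl R. The share of all probes that passed was 15.7% in Dahl S against SHR and 13% in SHR against Dahl R. In the fit without SHR replicate 3, 3 genes of the list were higher and 1 was lower in Dahl S than in SHR, where 26.2% of all probes passed.

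Genes of the concentrating mechanism and of osmolyte uptake were tested for 14 of 17 listed. In Dahl S against SHR 1 was higher and 3 were lower in Dahl S, beside 15.7% of all probes. In SHR against Dahl R 4 were higher in SHR, beside 13% of all probes. The median difference was 0.22 for Dahl S over Dahl R, -0.16 for Dahl S over SHR and 0.48 for SHR over Dahl R. The urea transporter Slc14a1 was lower in Dahl S than in SHR (-0.60 ± 0.12, limma adjusted p 0.0133). Akr1b1, which makes the osmolyte sorbitol, was lower in Dahl S than in SHR (-0.57, adjusted p 0.0336) and higher in SHR than in Dahl R (0.70, adjusted p 0.0199), from 2 usable SHR arrays. Akr1b1 was already counted above among the inner medulla and papilla markers.

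Slc38a2, an amino acid carrier that responds to tonicity, was higher in SHR than in Dahl R by 0.47 (limma adjusted p 0.0469), also from 2 usable SHR arrays, and passed under 4 of 21 alternatives. The Akr1b1 calls passed under 9 alternatives for Dahl S against SHR and 13 for SHR against Dahl R, and the Slc14a1 call under 15. The heat shock gene Hspb1 was higher in Dahl S than in SHR by 0.51 (adjusted p 0.0233), passing under 8 of 21, and its sign turned when marked spots were counted (-0.06) and in the authors' values (-0.04). Nfat5, the tonicity-responsive factor itself, did not pass in any comparison. With SHR replicate 3 left out, 6 of 14 genes of the list were higher in SHR than in Dahl R, beside 22.7% of all probes. Of the same genes, 5 were lower and 1 was higher in Dahl S than in SHR, beside 26.2%.

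Regulators of collecting duct genes were tested for 21 of 23 listed. In Dahl S against Dahl R 0 passed, and in Dahl S against SHR 1 was higher and 4 were lower in Dahl S. In SHR against Dahl R 7 were higher and 1 was lower in SHR. The shares of all probes that passed were 1.4%, 15.7% and 13% in the same order. Nr1h4, the bile acid receptor FXR, which in mouse kidney raises Aqp2, was 70.8-fold higher in SHR than in Dahl R (6.15 ± 0.26, limma adjusted p 1.01e-05), and Dahl S was below SHR by a difference of -5.39 ± 0.26 (adjusted p 2.01e-05). Both calls held under 21 of 21 alternatives, with differences of 5.12 to 6.50 for SHR against Dahl R and -5.75 to -3.75 for Dahl S against SHR. Elf5, a principal cell transcription factor that in mouse acts on Aqp2 and Avpr2, was 1.85-fold higher in SHR than in Dahl R (0.89 ± 0.13, adjusted p 0.00482). It was lower in Dahl S than in SHR (-0.64 ± 0.13, adjusted p 0.0162). Elf5 was already counted above among the principal cell markers, and Foxi1 of this list among the intercalated cell markers.

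Casr, the calcium-sensing receptor, was the gene of this list that was lower in SHR than in Dahl R (-1.36 ± 0.21, limma adjusted p 0.0064), and Dahl S was 2.65-fold above SHR (adjusted p 0.00497). Ednrb, the endothelin B receptor, was 2.08-fold higher in SHR than in Dahl R (adjusted p 0.0229) and lower in Dahl S than in SHR by a difference of -1.34 (adjusted p 0.00784). Nr3c2, the mineralocorticoid receptor, differed by 0.43 in SHR against Dahl R (adjusted p 0.0256) and -0.38 in Dahl S against SHR (0.0325). The transcription factors Foxi1 of intercalated cells (1.02, adjusted p 0.0216), Tfcp2l1 (0.43, 0.0443) and Gata2 (0.67, 0.0477), the last of which supports Aqp2 transcription in mouse, were higher in SHR than in Dahl R. Of these weaker calls in SHR against Dahl R, Ednrb and Foxi1 passed under 14 of 21 alternatives, Nr3c2 under 10, Tfcp2l1 under 7 and Gata2 under 6, and Nr3c2 passed under 7 in Dahl S against SHR. The list's median difference was 0.24 for Dahl S over Dahl R, -0.02 for Dahl S over SHR and 0.26 for SHR over Dahl R, beside all-probe medians of 0.02 for Dahl S over Dahl R, -0.09 for Dahl S over SHR and 0.11 for SHR over Dahl R.

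**Figure D4:**
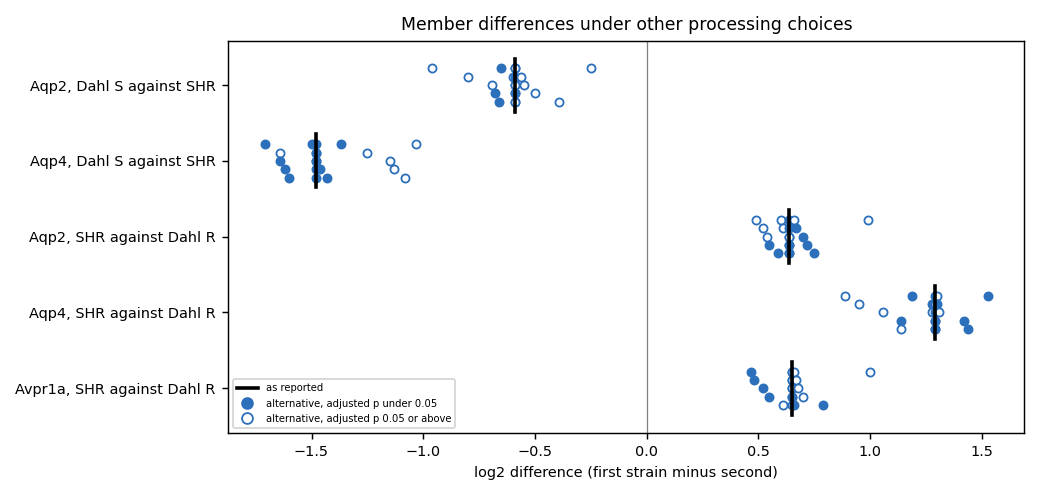
Log2 difference of the 5 member results that passed the test (black bars) and of the same results under 21 alternative settings (blue points, filled where the adjusted p is below 0.05), the first-named strain minus the second. All 21 points of each result keep the sign of the reported value, and between 8 and 15 of the 21 points of a result are filled.

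Of the 5 member results that passed, the direction held under all 21 alternatives. The brighter Aqp4 probe passed under 15 for Dahl S against SHR, with differences of -1.71 to -1.03, and under 12 for SHR against Dahl R, with differences of 0.89 to 1.53. The second Aqp4 probe, which passed in neither with all 9 arrays, did so under 3 of 21 in each, with differences of -1.50 to -0.51 and 0.39 to 1.24. Aqp2 passed under 9 for Dahl S against SHR (-0.96 to -0.25) and under 11 for SHR against Dahl R (0.49 to 0.99). Avpr1a passed under 8 for SHR against Dahl R (0.47 to 1.00). With scan pass as a block, 0 members passed in Dahl S against SHR and 4 passed in SHR against Dahl R, namely Aqp4, Aqp7, Aqp11 and Avpr1a. In Dahl S against SHR that block takes its information through Dahl R, since the strains share no scan pass. In SHR against Dahl R it uses the second scan pass alone, since SHR replicate 3 was scanned by itself. The differences with that block, within the second pass and without SHR replicate 3 therefore share their SHR arrays and are not independent results. A sequence difference between a strain and the probe could change a signal, and the files hold no probe sequences.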

How the data were processed

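Kidney RNA of 9 male rats of 3 strains was labelled with Cy3 from 1 µg of total RNA and put on a one-colour Agilent array, 1 array per rat. Per the file headers, the deposited processed signal is an intensity that Agilent Feature Extraction 10.5.1.1 (version per the submitters' processing notes) had background-subtracted, spatially detrended and floored, with no scaling between arrays. The deposited median spot and local background intensities carry no correction and served the alternative with normexp (offset 50). Other deposited columns mark spots above background, saturated or outlying. The authors also deposited a table of 19407 probes, read here as log2 values because its columns correlated with the scanner log2 signals at 0.974 (SHR replicate 3) and 0.999 to 1.00. Its column medians were 9.63 to 9.64, and its normalization and centring are not given in the sources used here, so it served only as an alternative.

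From the intensity, log2 was taken and the log2 of the array's 75th percentile over all 42136 non-control spots was subtracted. Marked outlier spots were set to missing and spots of a probe averaged. Testing required that a share of 0.5 or more of a probe's spots rose well above background, on 3 arrays or more, and that every strain had a usable spot. Saturated spots numbered 0. Signal and array number limit the precision, since arrays give no counts. Strains were compared in R 4.3.3 with limma 3.58.1 (lmFit, eBayes), with strain as the only term over all 9 arrays and Benjamini-Hochberg adjustment over the 16592 tested probes of each comparison, and the code was tested on simulated data. Genes were named by matching RefSeq identifiers to the RefSeq GRCr8 table, and promoter windows came from the matching RefSeq table. The array grid uses another build, so no probe coordinates are given.

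The members and lists were chosen with earlier results of these data known. The text names all 10 members with every probe (the brightest stands for the gene), list genes past the threshold (at most 8 a list), all measured genes of a list of other aquaporins and peptides, and the 3 genes most alike to each member that passed. Some list genes are counted but not reported here by name. The replicate numbers shared by the strains were taken to name arrays only. Same-numbered arrays deviated from their strain means with correlations of -0.164 to 0.0616, so no positive correlation exceeded 0.1. Alternatives were the background correction, quantile scaling, the spots that set the percentile, marked spots kept, 2 other filters, the authors' values, scan pass as a fixed or random block, the replicate block, array weights, fits of 2 strains only, and leaving out each array.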

Additional observations from a re-analysis of the deposited data

How the results depend on the processing

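The counts of members past the threshold, given for Dahl S over Dahl R, then Dahl S over SHR, then SHR over Dahl R, were 0, 2 and 3 as reported. They were 0, 0 and 0 with normexp, 0, 1 and 0 with the percentile over unmarked spots, without a signal filter and with only the 2 strains compared, 0, 1 and 2 with marked spots kept, 0, 1 and 1 in the authors' values, 0, 0 and 4 with scan pass as a block, 0, 0 and 3 with it as a random block, and 2, 3 and 4 with array weights. In the replicate block fit they were 0, 2 and 2. Quantile scaling and the filter for probes above background on all arrays of a strain kept 0, 2 and 3. Leaving out 1 array gave 0 to 0, 1 to 2 and 0 to 5; SHR against Dahl R gave 0 without Dahl R replicate 1 or 2, 1 without Dahl S replicate 1 or SHR replicate 2, and 5 without SHR replicate 3. The cause of these shifts was not tested. Over all probes the median of SHR against Dahl R was 0.11 as reported, 0.42 with the percentile over unmarked spots, 0.18 with normexp and -0.02 with quantile scaling, and for Dahl S against SHR -0.09, -0.42, 0.11 and 0.03. Calls over all probes, in the same order, numbered 233, 2605 and 2165 as reported, 43, 550 and 416 with normexp, 40, 626 and 503 with the percentile over unmarked spots, 93, 1491 and 1188 without a filter, 164, 866 and 2648 with scan pass as a block, 247, 1262 and 2800 with it as a random block, 75, 1902 and 1424 in the replicate block fit, 770, 1208 and 1171 with only the 2 strains compared, and 2141, 4860 and 4211 with array weights. Leaving out 1 array gave 74 to 761, 1317 to 4340 and 966 to 3768, each highest without SHR replicate 3 and lowest without Dahl R replicate 2, Dahl S replicate 2 and Dahl R replicate 2.

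Sign changes touched only member differences that did not pass the test, and Hspb1 (-0.06 with marked spots kept, -0.04 in the authors' values). Aqp1 in Dahl S against Dahl R was -0.15 with normexp, -0.07 with quantile scaling, in the authors' values and with scan pass as a block, and -0.04 as a random block; in Dahl S against SHR it was -0.06 with normexp and -0.01 with scan pass. Aqp2 in Dahl S against Dahl R was -0.15 with normexp and -0.06 with array weights. Aqp3 in Dahl S against Dahl R was -0.19 with normexp, -0.09 with weights, -0.01 with unmarked spots and 0.00 with quantile scaling; in Dahl S against SHR it was 0.14 with scan pass and 0.09 as a random block, and in SHR against Dahl R -0.01 with scan pass. Aqp4 in Dahl S against Dahl R was 0.12 with scan pass and 0.03 as a random block. Aqp5 in Dahl S against Dahl R was 1.14 with normexp, 0.11 with scan pass, and 0.03 with quantile scaling, in the authors' values and as a random block; in Dahl S against SHR it was 0.61, 0.15 and 0.09 with normexp, quantile scaling and the authors' values, and in SHR against Dahl R -0.12 with quantile scaling and -0.06 in the authors' values. Aqp6 in Dahl S against Dahl R was 0.43 with normexp and 0.16 with scan pass, and in Dahl S against SHR 0.05 with scan pass. Aqp7 in Dahl S against SHR was -0.36 with unmarked spots and -0.07 with normexp, and in SHR against Dahl R 0.09 with unmarked spots. Aqp11 with unmarked spots was -0.18 in Dahl S against SHR and 0.10 in SHR against Dahl R. Avpr2 in Dahl S against SHR was 0.25 with scan pass and 0.16 as a random block. Leaving out 1 array gave ranges across 0 in Dahl S against Dahl R for Aqp1 (-0.03 to 0.06), Aqp2 (-0.06 to 0.16), Aqp3 (-0.09 to 0.10), Aqp5 (-0.14 to 0.08) and Aqp6 (-0.26 to 0.01), in Dahl S against SHR for Aqp3 (-0.15 to 0.04), Aqp7 (-0.12 to 0.20) and Avpr2 (-0.17 to 0.03), and in SHR against Dahl R for Aqp3 (-0.01 to 0.13).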

Other observations

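Genes of the same family or of the hormone system outside the 10 members were also measured, and 6 were tested: Aqp8, Aqp9, Mip (the lens aquaporin), Avp (vasopressin), Oxt (oxytocin) and Lnpep (the peptidase that degrades both hormones). With all 9 arrays 0 of 6 passed an adjusted p of 0.05 in limma in any of the 3 comparisons. Aqp12a and Oxtr did not reach the signal filter, and Avpr1b had no matched probe.

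The probe for Avp gave a clear signal in kidney RNA, with levels of 2.77, 3.18 and 3.30 in Dahl S, 4.39, 5.01 and 2.57 in SHR, and 3.57, 4.19 and 3.96 in Dahl R on the log2 scale relative to the 75th percentile. Without probe sequences, whether this probe also binds other transcripts could not be checked. Dahl S was below Dahl R on all arrays, and SHR replicates 1 and 2 were above all others while SHR replicate 3 was the lowest of the 9. Dahl S against SHR gave -0.91 ± 0.56 with all arrays (limma adjusted p 0.308) and -1.62 without SHR replicate 3 (adjusted p 0.0053), and Dahl S against Dahl R gave -0.82 (0.735 and 0.11). Aqp9, a glycerol and urea channel, had a faint signal of -4.16, -4.18 and -4.00 in Dahl S, -4.49, -4.54 and -3.40 in SHR, and -4.53, -4.72 and -4.87 in Dahl R. Without SHR replicate 3, where the probe was not well above background, it was higher in Dahl S than in Dahl R by 0.59 (adjusted p 0.0246) and than in SHR by 0.40 (adjusted p 0.0422); with all arrays these gave 0.59 (0.557) and 0.03 (0.956).

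Aqp8 averaged -0.81 ± 0.24 in Dahl S, -0.56 ± 0.34 in SHR and -0.54 ± 0.14 in Dahl R (SD, n = 3 each). Mip, Oxt and Lnpep were marked as detected above background on 2 of 3 arrays in SHR and 3 of 3 in each Dahl strain, and their differences did not pass with or without SHR replicate 3.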
